A study of Mus musculus with 4 samples.

Results

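Mast cell genes were followed through mouse sarcomas profiled cell by cell: Mcpt4, Cpa3, Cma1, Tpsb2, Kit, Hdc, Fcer1a, Ms4a2, Tph1 and Cyp11a1, 10 of the 18220 genes in the deposited tables. They were picked by symbol, and the list was proposed with results of these data in view, so their levels in the host cells are given as a description, and no result is drawn from a test of them there. All 10 had a row in the table of non-malignant cells (16349 genes) and 9 had one in the table of malignant cells (17992 genes), where Ms4a2 had none. In both tables the smallest number of cells with any listed gene was 11.

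The tumors were allografts in the hind limb of a sarcoma model of genotype KrasLSL-G12D/+;Trp53flox/flox on the 129/SvJae background, which all groups shared. Hosts received intraperitoneal PBS as vehicle (2 mice) or digoxin at 2 mg/kg (2 mice), a cardiac glycoside that blocks the sodium-potassium pump, every 24 h, and tumors were taken after 4 doses. How the conditional alleles were recombined, the age of the hosts and whether the grafts came from 1 tumor line are not given in the sources used here. Tumors were dissociated with collagenase, dispase and trypsin, strained at 40 µm, and captured on a droplet platform with a 3′ kit that tags RNA molecules with unique molecular identifiers (UMIs). Numbers of cells below are numbers of captured cells.

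Mast cells are tissue-resident cells of the hematopoietic lineage that depend on the receptor tyrosine kinase Kit and its ligand Kitl. They store histamine, proteases and proteoglycan in granules and release them when antigen cross-links immunoglobulin E on the high-affinity receptor, of which Fcer1a encodes the binding chain and Ms4a2 the beta chain. Connective tissue mast cells carry chymases, tryptases and carboxypeptidase together, and they are found around vessels and nerves and at the border of many tumors.

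The malignant table held 3976 to 6269 cells per mouse at a median of 46799 to 57658 UMIs per cell, and the non-malignant table held 3014 to 3344 cells per mouse at a median of 15837 to 16671 UMIs. No cell name occurred in both tables, and 113 of 31498 barcodes occurred in more than 1 library. Vehicle replicate 2 stood apart from the other 3 libraries in its sex-linked genes. Its cell names carry the number 3, and it is placed in this group by the authors' table of cells. A UMI of Xist was found in 0.235% of its non-malignant cells, the Unknown cells left out, against 97.0% to 98.4% in the other mice, and Ddx3y in 66.3% against 2.45% to 3.44%. The vehicle group thus joined a host with the Y-linked gene and a host without it, while both digoxin hosts lacked it. The part of this difference in the results below was not tested, and values are given for each mouse.

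Promoters are shown for 5 members that bear a word read by GATA factors, since Gata2, a regulator of mast cell genes, was found in 13 of the 14 cells that carried the members together (described below). Sequences are from RefSeq (GRCm38.p6), the 250 bases before the annotated start, 5′ to 3′ on the gene's strand, with each GATA word in capitals.
Mcpt4, chr14:56062311-56062560, minus strand: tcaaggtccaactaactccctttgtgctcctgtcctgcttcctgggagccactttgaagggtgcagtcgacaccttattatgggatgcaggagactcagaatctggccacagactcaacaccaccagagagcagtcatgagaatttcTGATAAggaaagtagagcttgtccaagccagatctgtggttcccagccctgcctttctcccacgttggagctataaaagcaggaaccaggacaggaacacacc
Cma1, chr14:55944676-55944925, minus strand: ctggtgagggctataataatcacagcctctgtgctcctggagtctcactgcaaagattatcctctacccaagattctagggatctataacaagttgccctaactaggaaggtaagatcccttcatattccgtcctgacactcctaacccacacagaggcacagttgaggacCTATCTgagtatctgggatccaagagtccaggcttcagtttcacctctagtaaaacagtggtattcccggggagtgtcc
Cpa3, chr3:20242182-20242431, minus strand: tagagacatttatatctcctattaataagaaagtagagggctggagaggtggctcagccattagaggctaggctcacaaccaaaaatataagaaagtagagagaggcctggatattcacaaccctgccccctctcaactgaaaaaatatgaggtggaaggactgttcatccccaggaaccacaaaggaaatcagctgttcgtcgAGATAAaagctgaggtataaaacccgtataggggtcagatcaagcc
Fcer1a, chr1:173227230-173227479, minus strand: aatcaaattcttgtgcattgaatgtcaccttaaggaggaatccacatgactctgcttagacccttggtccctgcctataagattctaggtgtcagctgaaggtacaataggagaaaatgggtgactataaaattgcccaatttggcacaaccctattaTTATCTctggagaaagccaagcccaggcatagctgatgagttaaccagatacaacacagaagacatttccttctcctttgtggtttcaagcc
Ms4a2, chr19:11623720-11623969, minus strand: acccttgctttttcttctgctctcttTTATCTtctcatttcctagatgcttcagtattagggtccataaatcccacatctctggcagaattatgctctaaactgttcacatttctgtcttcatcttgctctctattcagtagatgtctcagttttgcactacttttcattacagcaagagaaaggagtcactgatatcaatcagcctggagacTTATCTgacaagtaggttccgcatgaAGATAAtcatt
The GATA words searched on either strand were AGATAA and the word TGATAA, then AGATAG and the word TGATAG. Thus TTATCT in Fcer1a and Ms4a2 is AGATAA read from the other strand, and CTATCT in Cma1 is AGATAG. The word began 103 bases before the start in Mcpt4, 79 in Cma1, 46 in Cpa3 and 92 in Fcer1a, and 224, 37 and 11 bases before it in Ms4a2. Of the 10 members, 9 had a promoter entry, with Tpsb2 the exception, and 8 of these 9 held at least 1 of the words in at least 1 of their entries. Counted by entry this was 8 of 12, against 8718 of all 32851 promoters (26.5%). Kit held none. These are matches of letters, and no binding was measured here.

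Several of these genes lie among close relatives. Mcpt4 (chromosome 14, 56059629 to 56062313) and Cma1 (chromosome 14, 55941451 to 55944675) belong to the same chymase cluster, and Tpsb2 (chromosome 17, 25366305 to 25369098) has the neighbouring tryptase gene Tpsab1. UMIs of these paralogs are uncertain where reads could be split between copies.

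The members came together in very few cells, and those cells carried them at high level (the plot of cells by number of mast cell genes). Of the 12648 non-malignant cells, 26 had a UMI of at least 3 of the 10 genes. Vehicle replicates 1 and 2 held 1 and 3 of these cells, and digoxin replicates 1 and 2 held 9 and 13. As shares these were 0.0330%, 0.0995%, 0.269% and 0.399%, with exact 95% intervals, which cover counting error only, of 0.000835% to 0.184%, 0.0205% to 0.291%, 0.123% to 0.510% and 0.213% to 0.682%. Both digoxin mice were above both vehicle mice, and the intervals of neighbouring mice overlapped. Of these 26 cells, 14 had 9 or 10 of the genes and the other 12 had 3 to 5, with none between.

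The 14 cells are called mast cell-like below, a term for their genes alone, and the limit of 7 genes that separates them was set after the values were seen. There were 0, 2, 6 and 6 of them in vehicle replicates 1 and 2 and digoxin replicates 1 and 2. One of the 2 in vehicle replicate 2 was a cell named Unknown with 9 UMIs of Xist, in a library whose other non-malignant cells mostly lacked Xist, and whether it came from that host was not tested. The 0 of 3033 cells in vehicle replicate 1 allows a share of up to 0.0989%. The shares in the other mice were 0.0664%, 0.179% and 0.184%. The malignant table held 4 more such cells with 7 to 9 of its 9 genes, 1 in each mouse. Over both tables the numbers were therefore 1, 3, 7 and 7, digoxin again above vehicle in each mouse. No test is given for these counts, and 2 mice a group cannot reach a small p in an exact permutation test (the two-sided minimum is 0.33). None of the 18 barcodes of these cells occurred in another library.

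**Figure D1:**
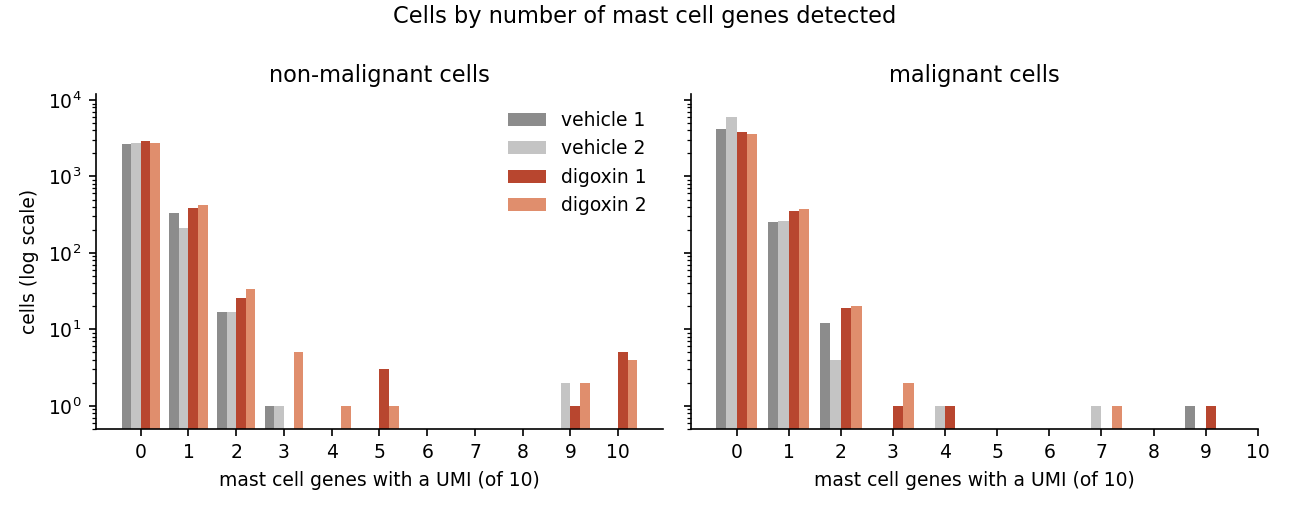
Number of cells (log scale) by how many of the 10 mast cell genes had a UMI, non-malignant and malignant tables apart, 1 bar for each mouse. Non-malignant cells with 9 or 10 genes number 0 and 2 with vehicle, 6 and 6 with digoxin, and no non-malignant cell has 6, 7 or 8.

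The authors had placed 12 of the 14 cells in the type they named Epithelial, 1 in Fibroblast (digoxin replicate 1) and 1 in Unknown (vehicle replicate 2). That Epithelial label goes against its genes. Of the other 335 cells so named, 309 had a UMI of Cdh5, the endothelial cadherin, and 2 had one of Epcam, the epithelial adhesion molecule. The name is kept below as the authors' label. The 0 of 80, 1 of 98, 5 of 83 and 6 of 86 mast cell-like cells among them, in the mouse order given above, are shares of 0% (which allows up to 3.75%), 1.02%, 6.02% and 6.98%.

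Of the 12 cells filed under Epithelial, 11 had at most 5 UMIs of the endothelial list and 1, from digoxin replicate 1, had 14, while the one filed under Fibroblast carried fibroblast RNA. Over all 14 cells the 10 endothelial genes summed to a mean of 247 CPM (UMIs scaled to a total of 1000000 per cell), with a range of 0 to 2314, against 7003 in the other Epithelial cells, and the highest value is that of the cell with 14 UMIs. Cldn5 and Tek, both endothelial, were at 0 in all 14, and so were the pericyte genes Rgs5, Abcc9, Kcnj8 and Notch3. The T cell, NK, B cell, dendritic and eosinophil lists were at 0 in every one of the 14. Macrophage genes summed to a mean of 3889 CPM, with a range of 0 to 21233, against 22683 in macrophages, and 3 cells carried 132, 209 and 218 UMIs of that list, 2 of them from digoxin replicate 2 and 1 from vehicle replicate 2. The Fibroblast-named cell carried 951 UMIs of the 5 fibroblast genes, 22716 CPM. The part of these other cells' RNA in the values of those 5 cells, the one with 14 endothelial UMIs included, was not tested. Scrublet marked none of the 14 as a doublet. It marked only 0.332% to 0.956% of non-malignant cells in each mouse, so none among 14 cells says little about mixed cells.

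The 14 cells were small libraries in which the members took a large share. Their UMIs ran from 4036 to 41864 with a median of 9858.5, against a median of 19826 in the other Epithelial cells, and the 10 genes made up 1.38% to 16.3% of them, with a median of 3.98%. In the 4 cells of the malignant table the members made up 0.332% to 2.74%, and the one from vehicle replicate 1 was marked as a doublet. All 4 lacked Trp53 UMIs, and Trp53 was also at 0 in 8 of the 14. Only 28.2% to 34.1% of malignant cells in each mouse had a Trp53 UMI, so its absence tells little. In vehicle replicates 1 and 2 and digoxin replicates 1 and 2, these 4 cells had 2, 0, 6 and 2 UMIs of Xist. Ddx3y had 0, 0, 0 and 1. The origin of these cells was not tested. Fibroblast genes gave 2 to 65 UMIs in these 4.

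**Figure D2:**
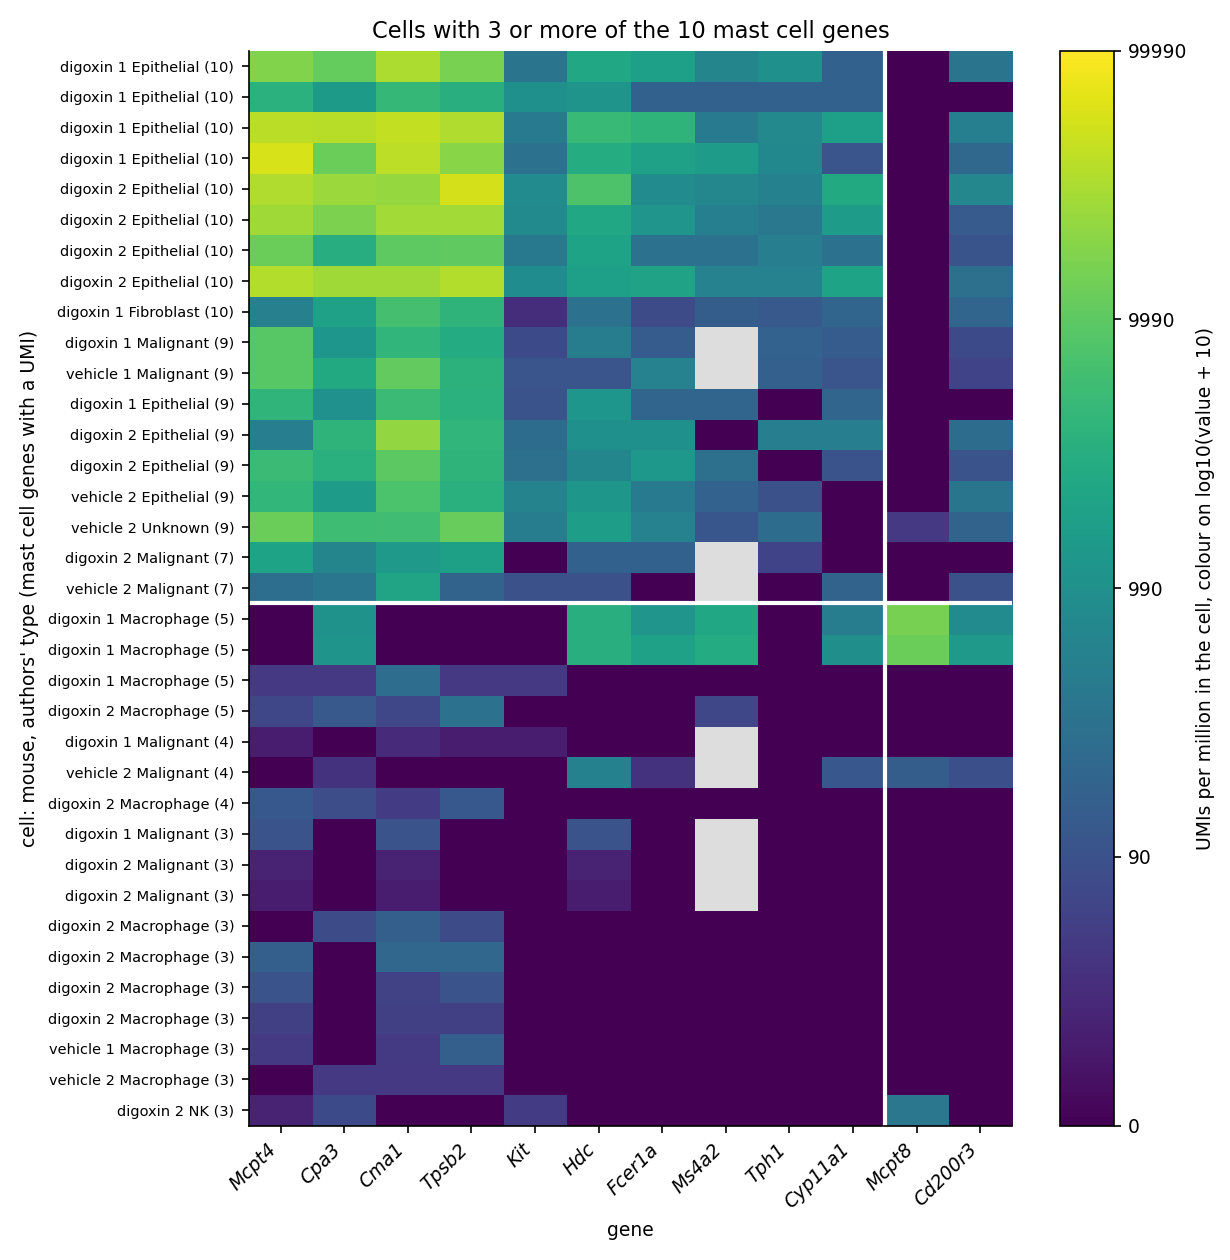
Each row is a cell with 3 or more of the 10 mast cell genes, labelled by mouse and the authors' type with the number of genes in parentheses, and colour gives CPM in that cell on a log scale. The cells with 9 or 10 genes carry the 4 proteases at high level, and below them the macrophages carry 1 to 7 UMIs of a protease, apart from 2 cells of digoxin replicate 1 that have Hdc, Fcer1a and Ms4a2 but no chymase or tryptase.

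The granule proteases were the strongest of the members in these cells. Cma1, a protease of the chymase family, had 28 to 400 UMIs in each of the 14 cells with a median of 164. Tpsb2, a tryptase, had 17 to 385 with a median of 135. Mcpt4, the main connective tissue chymase of the mouse, had 2 to 544 with a median of 117. Cpa3, the mast cell carboxypeptidase, had 9 to 347 with a median of 74. All 4 were thus present in every one of the 14 cells, at levels that differed widely. The cells were chosen by the number of members present, so presence itself could vary little. Median levels were 16388 CPM for Cma1, 12797 CPM for Mcpt4, 11115 CPM for Tpsb2 and 4791 CPM for Cpa3. These are counts of 3′ ends, which do not scale with transcript length.

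Nearly all RNA of the proteases in the host cells came from these 14 cells. They held 96.1% of all Mcpt4 UMIs in the non-malignant table, 94.5% of Tpsb2, 94.2% of Cma1 and 93.0% of Cpa3. In the malignant table's 4 cells, in the order vehicle replicates 1 and 2 and digoxin replicates 1 and 2, Mcpt4 had 173, 3, 266 and 38 UMIs. Cma1 had 206, 24, 123 and 27 in the same cells, Tpsb2 had 70, 2, 85 and 35, and Cpa3 had 51, 4, 36 and 12. The vehicle replicate 2 cell had the fewest UMIs of each of these proteases, but for Cma1 the digoxin replicate 2 cell was lower as CPM, at 1464 against 2152.

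The receptor genes were lower in these cells. Fcer1a had 1 to 37 UMIs in the 14 cells (median 7.5), which was 78.6% of its UMIs in the host cells. Ms4a2 was found in 13 of the 14 cells with up to 15 UMIs, or 50.9% of its UMIs. Kit was present in all 14 but with only 1 to 13 UMIs (median 4, or 411 CPM), and these were 6.41% of the Kit UMIs in the host cells.

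Of the genes for small mediators, Hdc, which makes histamine, had 4 to 54 UMIs (median 17) in the 14 cells, 15.5% of its UMIs in the host cells. Tph1, the first enzyme of serotonin synthesis, was found in 12 of the 14 with up to 7 UMIs, and these made up 93.1% of its UMIs. Cyp11a1, which cleaves cholesterol to pregnenolone, was found in 12 of the 14 with up to 22 UMIs. These were the 12 digoxin cells, with 1 to 22 UMIs each, and both vehicle cells had 0. Among the malignant-table cells Cyp11a1 had 2, 2, 4 and 0 UMIs in the same mouse order, so vehicle cells with it were present there.

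By detection across the 12648 non-malignant cells, Ms4a2 followed the cells with 3 or more members most closely (correlation 0.761), then Fcer1a (0.627) and Tph1 (0.607). Hdc (0.109) and Kit (0.145) followed them least. A member counts towards the 3, so these values describe the list only. Outside the list, genes with a UMI in at least 13 of the 26 cells were ranked. The most alike of these was Atp8b5 (0.598), with a UMI in 14 of the 26 cells and in 21 cells in all. Mrgprb1 (0.538), a receptor of the Mrgpr family, came next with 14 of 26 cells. It was followed by the tryptase Tpsab1 (0.351), by Slc18a2 (0.342), the vesicle transporter that loads histamine and serotonin, by Cd200r3 (0.341), and by the granule protease Ctsg (0.313). Slc6a4, the serotonin transporter (0.203), Gata2 (0.146), Rab27b (0.145), which acts in granule release, and Chn2 (0.0878) completed the 10 of this kind. Some genes found in fewer of the 26 cells followed them more closely than most of these: Mrgprb2 (0.440, 9 cells), Cobl (0.386, 11 cells) and Car8 (0.363, 10 cells).

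A list of 26 further mast cell genes, 20 of them with rows, summed to 40389 CPM in the 14 cells, against 921 in the other Epithelial cells. Tpsab1 was found in all 14 at a mean of 26341 CPM and at 0.818 CPM in the other Epithelial cells. Mrgprb1 was in all 14 at 1318 CPM, Gata2, Il1rl1 (the receptor of interleukin-33), Rab27b, Lat2 and Csf2rb in 13 (but Csf2rb also in 61.5% and Gata2 in 38.2% of the other Epithelial cells), Hpgds, the prostaglandin D2 synthase, in 11, and Slc18a2 in 10. Mrgprb2, the receptor for basic secretagogues of connective tissue mast cells, was in 9, Mitf in 6 and Il4 in 5. Others did not set these cells apart by detection: Ptgs1, a cyclooxygenase, was in 3 of 14 against 18.5% of the other Epithelial cells, and Ltc4s, the leukotriene C4 synthase, in 1 of 14 against 32.5%. Of the basophil genes, Cd200r3 was in 12 of the 14 and Mcpt8, the defining basophil protease, in 1. The comparison of these 14 cells with others is a description, since the cells were chosen by their RNA.

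A pair of host cells carried part of the list in another arrangement. In digoxin replicate 1, 2 cells named Macrophage had 128 and 141 UMIs of Mcpt8, with 3 and 4 of the 4 basophil genes that have rows. They had 27 and 38 UMIs of Hdc, 21 and 33 of Ms4a2, 10 and 22 of Fcer1a, 9 and 13 of Cpa3, and 4 and 11 of Cyp11a1. Mcpt4, Cma1, Tpsb2, Kit and Tph1 were at 0 in both. With 1 UMI of the macrophage list in each, they also went against their type name. The other 9 Macrophage cells with 3 or more members carried 184 to 1454 UMIs of the macrophage list and at most 7 UMIs of any 1 protease. A single NK cell, from digoxin replicate 2, completed the 26, with 27 UMIs of Mcpt8, 5 of Cpa3, 3 of Kit and 1 of Mcpt4.

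The members differed in how far they spread over the authors' types (the plot of shares by type). Mcpt4 had a UMI in 14 of 347 Epithelial cells (4.03%, exact 95% interval 2.22% to 6.68%), at a median depth of 19312 UMIs, and in 83 of 10363 macrophages (0.801%) at 16412 UMIs. Cma1 was in 13 of the 347 (3.75%) and in 1.13% of macrophages. Fcer1a was in 12 (3.46%) and in 0.0965% of macrophages, and Tph1 in 10 (2.88%) and in 0.0193%. Each of these 4 genes was highest in the Epithelial type by its mean over mice, but vehicle replicate 1 was at 0 there, so the range over mice overlapped that of the next type, Fibroblast or T cell. Cyp11a1 was less tied to the Epithelial type, with a UMI in 11 of 347 Epithelial cells (3.17%) and in 6 of 203 fibroblasts (2.96%). It was also in 90 malignant cells with 115 UMIs, of which 8 were in the 4 cells with 7 or more members, and Tph1 was in 68 malignant cells with 80 UMIs, of which 9 were in those 4.

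**Figure D3:**
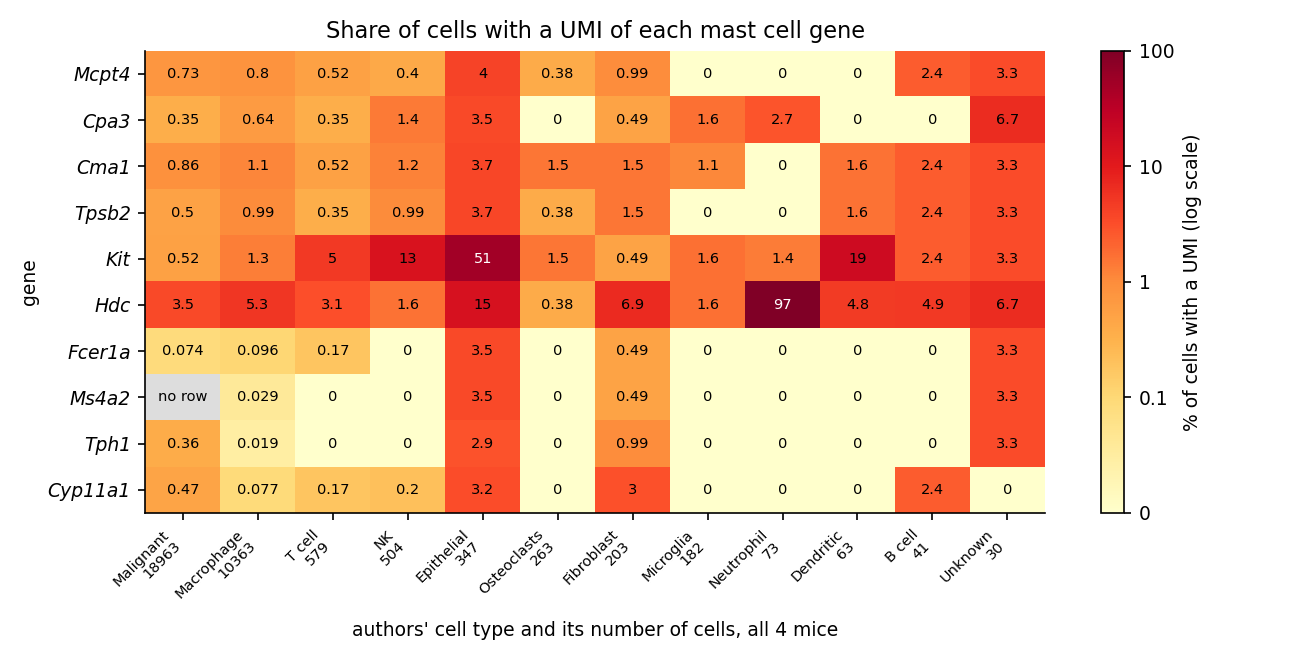
Percent of cells with a UMI of each mast cell gene (rows) in each type named by the authors and in malignant cells (columns, with the number of cells), colour on a log scale. Kit stands out in Epithelial (51.0%) and Hdc in Neutrophil (97.3%), while the proteases reach 3.46% to 4.03% in Epithelial.

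Most Kit UMIs lay outside the mast cell-like cells, in other cells of the Epithelial type. Its mean over mice was 77.2 CPM in Epithelial, with 59.4, 83.9, 85.8 and 79.6 in vehicle replicates 1 and 2 and digoxin replicates 1 and 2. Without the cells carrying 3 or more members it was still found in 165 of 335 (49.3%) at 61.9 CPM. Dendritic cells followed at 19.4 CPM (4.07 to 35.3) and NK cells at 16.6 (12.7 to 21.8), whose ranges overlapped, then T cells at 5.36. The Epithelial range did not overlap that of the dendritic cells, and the NK range did not overlap that of the T cells. In shares, 177 of 347 Epithelial cells (51.0%), 12 of 63 dendritic cells (19.0%), 68 of 504 NK cells (13.5%) and 29 of 579 T cells (5.01%) had a Kit UMI. Thinned to 5000 UMIs per cell, with shallower cells dropped, the shares were 21.1% of 336 Epithelial cells and 7.57% of 489 NK cells. Malignant cells (0.153 CPM) and fibroblasts (0.133 CPM) were lowest.

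Hdc was highest in neutrophils, where 71 of 73 cells had a UMI (97.3%, exact 95% interval 90.5% to 99.7%). Thinned to 5000 UMIs, Hdc was found in 80.6% of the 72 neutrophils of at least that depth. Its level there was 731 CPM in vehicle replicate 1 (11 cells), 886 in vehicle replicate 2 (5 cells), 570 in digoxin replicate 1 (34 cells) and 407 in digoxin replicate 2 (23 cells). Both digoxin values were below both vehicle values, from few cells. The next type, Epithelial, was at 98.6 CPM with a range of 13.8 to 200 that did not reach the neutrophils. Macrophages had a UMI of Hdc in 552 of 10363 cells (5.33%).

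In the Epithelial type, the digoxin mice both lay above the vehicle mice for 9 of the 10 genes, all but Kit (the plot of levels by mouse). Of all genes tested there, 17.8% lay so and 16.3% lay the other way. Across that type limma called 0.467% of the 10272 genes tested (0.448% higher and 0.0195% lower), and 8 of the 10 members were among the 48 called. The members were chosen with this contrast in view, so nothing is read from that count. edgeR called 0 genes there, and limma on CPM of summed UMIs also called 0. Mcpt4 was at 0, 45.9, 1448 and 1329 CPM in vehicle replicates 1 and 2 and digoxin replicates 1 and 2, or 22.9 ± 32.5 with vehicle and 1388 ± 84.3 with digoxin (mean ± SD, n = 2). As CPM of summed UMIs, Mcpt4 was lower, at 0, 24.2, 443 and 432. By mean CPM per cell, Cma1 was at 0, 76.8, 1510 and 1404 in the same order. Vehicle replicate 1 was at 0 for every protease, and the vehicle replicate 2 value came from 1 cell for nearly all of its UMIs.

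Tpsb2 was at 0, 36.3, 905 and 1583 CPM in the Epithelial cells of the 4 mice in that order, and Cpa3 at 0, 16.8, 760 and 909. The receptor chain Fcer1a was at 0, 4.41, 97.3 and 77.9 CPM, and Ms4a2 at 0, 1.77, 36.6 and 28.0. Hdc, with a level in vehicle replicate 1, was at 13.8, 20.7, 160 and 200. Tph1 was at 0, 0.883, 31.6 and 29.4, and Cyp11a1 at 0 in both vehicle mice and 29.3 and 84.7 with digoxin. The number of mast cell-like cells among them was 0, 1, 5 and 6 in these mice. Without the cells that carry 3 or more members, only Acta2, Myl9 and Myh11, genes of smooth muscle named after their values were seen, passed among all Epithelial genes. The cells left out were chosen by the members, so the loss of the members' own calls says nothing further.

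Kit was the one member whose groups overlapped there. Its vehicle and digoxin values were 71.6 ± 17.3 and 82.7 ± 4.36 CPM (mean ± SD, n = 2). Kit and Cma1 were the members not among the 48.

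**Figure D4:**
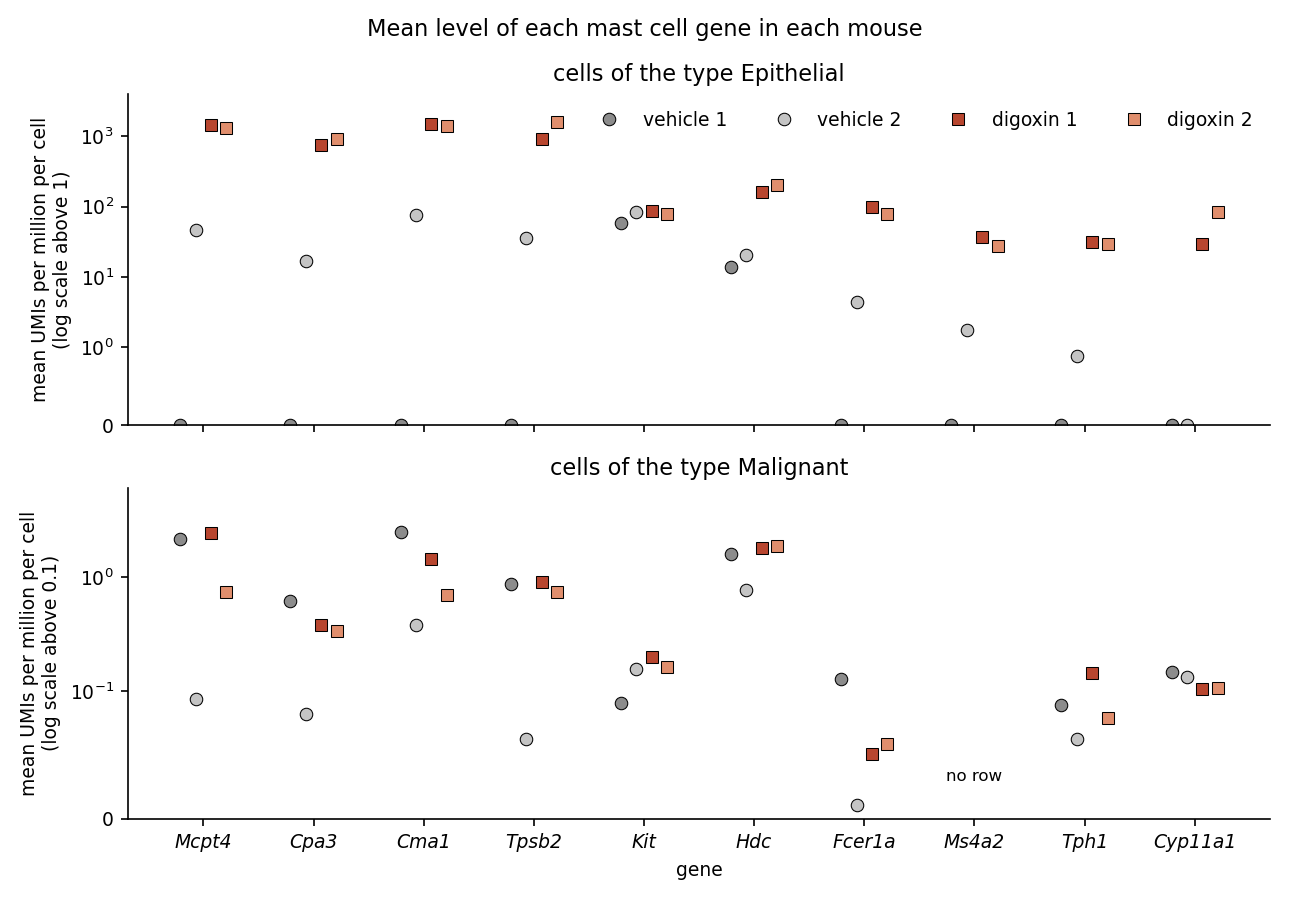
Mean CPM per cell of each gene in each of the 4 mice, in Epithelial cells (upper panel) and malignant cells (lower panel), on axes that are logarithmic above a linear range near 0. In Epithelial cells the digoxin mice lie above the vehicle mice for every gene but Kit, and in malignant cells the mice overlap for 6 of the 9 genes with a row.

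Averaged over all non-malignant cells, 9 of the 10 members lay higher in both digoxin mice, as did 12.4% of all 14879 genes, while 20.6% lay lower in both, and limma called 0%. The same 14 cells enter this average and all but 2 of them that of the Epithelial type, so it is no second observation. Mcpt4 was at 0.219, 5.87, 36.8 and 35.9 CPM in vehicle replicates 1 and 2 and digoxin replicates 1 and 2. Tpsb2 was at 0.476, 5.37, 24.3 and 42.9 in the same mice. Vehicle replicate 2 lay between vehicle replicate 1 and the digoxin mice for both, but 355 of its 414 Mcpt4 UMIs and 325 of its 382 Tpsb2 UMIs were in the 1 cell named Unknown that carried Xist. Hdc, carried mostly by neutrophils and macrophages, was at 11.2, 6.31, 17.5 and 16.2. Kit was at 3.65, 5.07, 3.96 and 4.17, and its groups overlapped.

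In malignant cells the members were scarce and no member passed the test. Of the 9 genes with a row, Fcer1a was removed by the filter on low counts, and limma called 0 of the other 8 and 0% of all 17138 genes, each member at an adjusted p of 0.9999. Mcpt4 was at 2.12, 0.0939, 2.42 and 0.735 CPM in vehicle replicates 1 and 2 and digoxin replicates 1 and 2, a log2 difference of 0.40 ± 0.55 (SE). Cma1 was at 2.47, 0.379, 1.43 and 0.696 CPM, a log2 difference of -0.11. Tpsb2 was at 0.869, 0.0626, 0.896 and 0.730 CPM, a log2 difference of 0.36. For these proteases vehicle replicate 1 was as high as the digoxin mice and vehicle replicate 2 was low, so the groups overlapped.

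The values of the proteases moved by more than 1.5 times with the method. Without cells marked as doublets, which leaves out the cell of vehicle replicate 1 with 7 or more members, the log2 difference was 1.19 for Mcpt4 (limma adjusted p = 0.991) and 0.79 for Tpsb2 (adjusted p = 0.877). With edgeR it was 1.17 and 1.35, at an adjusted p of 0.984 for both. For Cpa3 the difference of 0.03 became 0.38 without these cells and 0.77 with edgeR, and for Cma1 the sign turned, to 0.72 and 0.34, and none of the 4 passed.

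A single cell held most of these UMIs in some mice. In vehicle replicate 1, 173 of the 189 Mcpt4 UMIs among malignant cells were in 1 cell. When all cells with 3 or more members were left out, the log2 difference became 0.19 for Mcpt4, 0.38 for Cma1, 0.24 for Tpsb2 and 0.14 for Cpa3. Kit and Hdc lay higher in both digoxin mice and Cyp11a1 lower, at levels of at most 1.85 CPM, and none passed the test. With 12.8% of all genes higher in both and 16.5% lower in both, 3 genes of 9 is near the share over all genes. edgeR, which called 0% of all genes, called none of the 8 (585 of all genes had an unadjusted limma p under 0.05, and 583 with edgeR). DESeq2 called 0.257% of all genes and none of these 8, of which 4 had no adjusted p.

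Protease UMIs were also scattered, mostly 1 at a time, over cells that carried fewer than 3 members, and there were more of them in the digoxin mice. In malignant cells of this kind, Mcpt4, Cpa3, Cma1 and Tpsb2 together made up 0.156, 0.143, 0.615 and 0.704 CPM over summed UMIs in vehicle replicates 1 and 2 and digoxin replicates 1 and 2. Both digoxin mice were above, with a ratio of the group means of 4.41. In macrophages the values were 1.10, 0.776, 2.45 and 3.16, a ratio of 2.98. In NK cells they were 2.02, 1.04, 3.59 and 3.42, and in T cells 0, 0, 2.43 and 4.59, from 10 UMIs in all. Microglia (0, 0, 5.84 and 3.20), neutrophils (0, 0, 1.99 and 3.13) and B cells (0, 0, 8.93 and 4.72) lay the same way, each from at most 4 UMIs a mouse. The share of all genes lying so in cells of this kind was not counted. The proteases were chosen with this contrast known in host cells, so nothing is read from these sides. The groups overlapped in the Epithelial cells (0, 0.936, 0 and 0.890), in the osteoclasts (1.26, 0.540, 0.682 and 1.93), in the fibroblasts (0.666, 0, 0 and 2.06) and in the dendritic cells (3.53, 0, 4.92 and 0), each from at most 3 UMIs a mouse.

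As shares, 0.932%, 0.782%, 3.92% and 4.38% of malignant cells in these mice had any UMI of the 4 proteases, and 1.78%, 0.978%, 3.97% and 5.01% of macrophages. No such cell among either had more than 4 UMIs of 1 protease. Whether these UMIs came from the cells they were counted in was not tested. Over both tables, vehicle replicate 2 had 3 mast cell-like cells, with the Unknown cell that carried Xist among them, and vehicle replicate 1 had 1. Vehicle replicate 2 had fewer scattered UMIs per UMI in malignant cells (0.143 against 0.156 CPM, from 50 and 48 UMIs). The same held in macrophages (32 and 48 UMIs) and NK cells (1 and 4 UMIs), while Epithelial cells went the other way (0.936 against 0 CPM). Nothing is read from this order.

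The mix of the 4 proteases among these scattered UMIs was set beside that of the cells with 7 or more members in the same library. In digoxin replicate 1 the scattered UMIs in malignant cells were 29.1% Mcpt4, 10.5% Cpa3, 39.0% Cma1 and 21.5% Tpsb2, from 172 UMIs, and the cells with 7 or more members had 31.0%, 15.2%, 33.3% and 20.4%. In vehicle replicate 1, from 48 UMIs, they were 33.3%, 12.5%, 35.4% and 18.8%, against 34.6%, 10.2%, 41.2% and 14% in the 1 such cell captured there. Cma1 was below its share of the scattered UMIs in the cells of digoxin replicate 2 (25.5% against 34.4%) and Tpsb2 above it (30.2% against 20%). In vehicle replicate 2, from 50 UMIs, Cma1 made up 32% of the scattered UMIs in malignant cells, and Tpsb2 18%. In the cells with 7 or more members there they made up 22.1% and 29.9%. Of the 272 Cma1 and 367 Tpsb2 UMIs behind these, 162 and 325 were in the cell named Unknown that carried Xist. The Epithelial cell had 86 and 40, more Cma1 than Tpsb2, and the malignant-table cell 24 and 2. The mix of that mouse, here and in the next comparison, thus rests mostly on 1 cell. The mix in macrophages was further from these cells in both vehicle mice, where Tpsb2 made up 37.5% and 43.8% of 48 and 32 UMIs, against 14% and 29.9% in the cells with 7 or more members. No test was made of these differences.

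**Figure D5:**
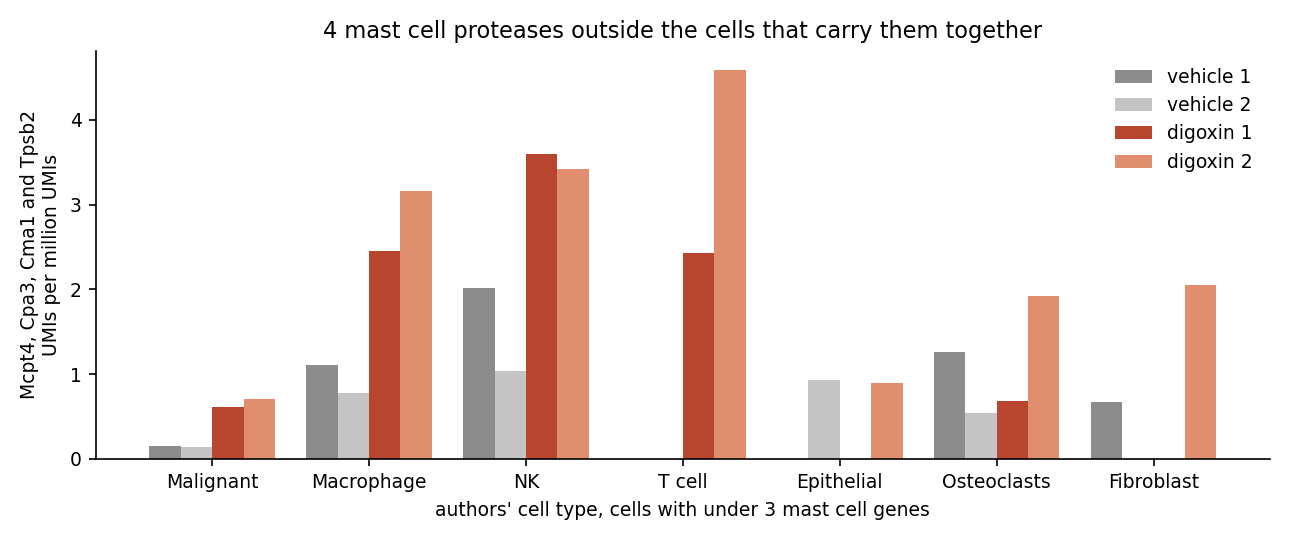
UMIs of Mcpt4, Cpa3, Cma1 and Tpsb2 together, scaled to a total of 1000000 UMIs, in cells with fewer than 3 mast cell genes, by the authors' type, 1 bar for each mouse. In malignant cells, macrophages, NK and T cells both digoxin bars are above both vehicle bars, and in Epithelial cells and osteoclasts they overlap. The share of all genes lying so was not counted.

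The signals that feed mast cells were listed separately: 13 ligands and growth signals, and 13 genes of signalling below the immunoglobulin E receptor and Kit. In malignant cells 0 of the 10 tested ligands and 0 of 13 signalling genes passed, with median log2 differences of -0.13 and -0.10 beside a median of -0.0058 over all genes. In all non-malignant cells 0 of 10 and 0 of 13 passed, with medians of 0.06 and -0.03 beside -0.0247 over all genes. Kitl, the Kit ligand, was found in 14227 of 18963 malignant cells (75.0%), at 42.0, 46.8, 52.9 and 61.1 CPM in vehicle replicates 1 and 2 and digoxin replicates 1 and 2. Both digoxin mice were higher, but the log2 difference of 0.35 ± 0.10 (SE) did not pass limma's test (adjusted p = 0.9999). Kitl was also in 78.7% of Epithelial cells, and Il33, the ligand of Il1rl1, in 70.4% of fibroblasts at 229 CPM.

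In Epithelial cells, 1 of 7 tested ligands and 2 of 9 signalling genes rose, where 0.448% of all genes did, and none fell, with medians of 0.30 and 0.10 beside 0.0030 over all genes. The lists were chosen with earlier results of these data known, so nothing is read from these counts. Lat2 and Fcer1g are also on the list of further mast cell genes. The ligand was Ccl2, a chemokine for monocytes and mast cell progenitors (log2 difference 1.74, limma adjusted p = 0.00508), and the others were Lat2, an adaptor (3.53, adjusted p = 0.00508), and Fcer1g, the gamma chain of the receptor (1.74, adjusted p = 0.00855). Without the cells carrying 3 or more members the differences were 0.27 for Ccl2, 0.48 for Lat2 and 0.78 for Fcer1g, and none passed. These 3 calls are from limma's fit of mean CPM per cell. edgeR called 0 genes in this type, and limma on CPM of summed UMIs also called 0. DESeq2 called 15, and whether these 3 are among them is not given here. The mast cell-like cells carried Ccl2 in 14 of 14, at a mean of 3313 CPM against 94.1 in the other Epithelial cells, and the adaptor Lat in 10 of 14, at 138 against 0.503 CPM.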

How the data were processed

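The authors deposited, for malignant and for non-malignant cells, a table of values that are the natural log of 1 plus UMIs per 10000 UMIs of the cell, checked against the values. The deposited UMI count of each cell allowed whole UMIs to be recovered: 100% within 0.01, with sums equal to the deposited counts in all 18963 malignant and 12648 non-malignant cells. Cell types and mouse of origin are the authors' deposited annotation. Cell Ranger 3.0.2, Seurat 3.0.2 and build mm10 are named per the submitters' processing notes, and the cell filter is not given in the sources used here.

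Levels are means over cells of CPM (UMIs scaled to a total of 1000000 per cell). Per mouse and population, log2(mean CPM + 1) was fitted over all genes that passed filterByExpr on summed UMIs with limma 3.58.1 (variance trend, Benjamini-Hochberg, 0.05). Fold changes on this scale understate changes of low genes. Tests on recovered counts with edgeR 4.0.16 and DESeq2 1.42.0, other pseudocounts (0.1 and 10), no filter, leaving out each mouse, doublets or cells with 3 or more members were alternatives. Each mouse is 1 sample, and p-values set the difference between groups against the spread of mice within groups. In limma that spread is moderated over all genes. Doublets were marked per mouse with Scrublet (scanpy 1.11.5, expected share 0.06): 1381 of 31611 cells (4.37%), kept in the main values. By mouse these were 5.49% to 8.50% of malignant and 0.332% to 0.956% of non-malignant cells. Shares have exact Clopper-Pearson 95% intervals, and a count of 0 allows up to 3 counts. The fits were also run on simulated counts, with changes put only into genes of high counts. That run gives no assurance for members that rest on few cells.

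The members, the lists and the tests were chosen with earlier results of these data known. Named genes were the members, the 10 other genes whose detection correlated best with cells of 3 or more members, among genes with a UMI in at least 13 of those 26 cells, and genes of the lists. Gene positions are from GENCODE vM21 (GRCm38), promoters from RefSeq (GRCm38.p6).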

Additional observations from a re-analysis of the deposited data

Results flagged for a closer look

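For 2 genes among the members and ligands, the digoxin mice lay on opposite sides of the vehicle mice in malignant and in Epithelial cells, in each case with no overlap between the groups. Of all genes tested, 12.8% lay higher and 16.5% lower in both digoxin mice in malignant cells, and 17.8% and 16.3% in Epithelial cells. The share of all genes on opposite sides was not counted, so nothing is read from the number of 2. The difference between the cell types was not tested. For Cyp11a1, digoxin minus vehicle was -0.0341 CPM in malignant cells and 57.0 CPM in Epithelial cells, where both vehicle mice were at 0. The Epithelial value came from mast cell-like cells alone, as Cyp11a1 had a UMI in 0 of the other 335 cells so named. Its direction in malignant cells turned with the method: the log2 difference was -0.04 in limma's fit, 0.09 with edgeR, 0.10 with DESeq2 and 0.0064 from CPM of summed UMIs. For the chemokine gene Ccl11, on the list of ligands, it was -6.34 CPM in malignant cells (14.8 ± 2.76 with vehicle, 8.43 ± 1.84 with digoxin, mean ± SD, n = 2) and 5.44 CPM in Epithelial cells (10.5 ± 5.82 and 16.0 ± 0.568). Its values in Epithelial cells rest on 3, 6, 5 and 9 cells with a UMI in vehicle replicates 1 and 2 and digoxin replicates 1 and 2, and as CPM of summed UMIs the groups overlapped there, at 3.37 and 8.37 with vehicle and 6.58 and 19.6 with digoxin.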

How the results depend on the processing

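With 2 mice a group, and 14 mast cell-like cells, single mice and single cells decide most values. The digoxin minus vehicle difference in the share of non-malignant cells with at least 3 members was 0.268 percentage points. The difference was 0.616 for at least 2 members and 0.203 to 0.3329 when each mouse was left out. After thinning to 5000 UMIs, which drops shallower cells, it was 0.181. Thinning left 5 of the 6 mast cell-like cells of digoxin replicate 2, as 1 had 4036 UMIs. It was 0.149 for at least 7 members and 0.0719 for at least 7 over both tables, both chosen after seeing the data. In Epithelial cells the difference of 5.99 points was 8.11 for at least 2 members and 5.48 to 6.50 when each mouse was left out. The number of genes called in malignant cells was 0 with limma (585 at an unadjusted p under 0.05) and edgeR (583), 44 with DESeq2, and 0 to 5 when each mouse was left out, 5 without vehicle replicate 1 and 5 without vehicle replicate 2. In non-malignant cells it was 0 with limma (581 unadjusted) and edgeR (587), 30 with DESeq2 and 0 to 27 when each mouse was left out. Without vehicle replicate 2 the log2 differences there were 4.94 for Mcpt4, 4.66 for Cma1 and 4.33 for Cpa3. That mouse is the only vehicle mouse with mast cell-like cells in the non-malignant table. These members were also chosen with this contrast in view, so nothing is read from these values. In Epithelial cells limma called 48 (593 unadjusted), edgeR 0 (436 unadjusted), DESeq2 15, limma with pseudocount 0.1 18, without the filter 6, without doublets 27, without cells of 3 or more members 3, and from CPM of summed UMIs 0. There, 341 were called without vehicle replicate 1, 249 without vehicle replicate 2, 10 without digoxin replicate 1 and 3 without digoxin replicate 2. When a group is left with 1 mouse, that mouse is assumed to vary like the other group. With the replicate number as a block the counts were 0 in malignant, 2 in non-malignant (S100a8 and Camp) and 85 in Epithelial cells. The numbers name different animals and do not pair them: same-numbered mice deviated with correlations of -0.36, 0.012 and -0.056 in these populations.

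Directions of some single genes reversed. In malignant cells Cma1 (log2 difference -0.11) was 0.72 without doublets, 0.38 without cells of 3 or more members and 0.13 from CPM of summed UMIs, and Cyp11a1 (-0.04) was 0.0064 from CPM of summed UMIs. Kit in Epithelial cells was -0.39 without cells of 3 or more members and -0.11 from CPM of summed UMIs. When each mouse was left out, malignant values ran from -0.36 to 1.15 for Mcpt4, -0.26 to 0.33 for Cpa3, -0.77 to 0.56 for Cma1 and -0.045 to 0.77 for Tpsb2. Kit ran from -0.26 to 0.12 in non-malignant and -0.022 to 0.47 in Epithelial cells. The cause was not tested. Of the single-gene values under the limma alternatives, 236 kept direction and side of the threshold, 36 lost and 10 gained a call, and 14 reversed. This count leaves out edgeR, DESeq2 and members that did not pass the filter in the main fit.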

Other observations

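The 30 cells named Unknown all came from vehicle replicate 2, and 30 of them had a UMI of Xist, at a mean of 596 CPM, while 5 had one of Ddx3y. In the other non-malignant cells of that library 7 of 2984 had a UMI of Xist. The mast cell-like cell named Unknown had 9 UMIs of Xist and the one named Epithelial in the same library had 0. In malignant cells Ddx3y was found in 63.4% to 68.1% of cells in every mouse, and Xist in 14.6% to 16.2% of cells in the other mice and 0.989% in vehicle replicate 2.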
